A study of Homo sapiens with 6 samples.

Results

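Chemokine and inflammatory cytokine genes were examined in ACHN, an established line of human renal carcinoma cells, transfected either with an siRNA against the deubiquitinase OTUD1 or with a control siRNA. The 10 genes were taken by name from the 58735 rows of the count table: the chemokines CCL2, CCL20, CCL28, CXCL1, CXCL2, CXCL3 and CXCL8, and the cytokines IL6, LIF and IL1A. All 10 were present once, 9 had enough counts to be tested, and IL1A did not. The OTUD1 siRNA group (titled si01) and the control siRNA group (titled NC) held 3 libraries each. Cells of both groups were grown in serum-containing minimum essential medium and transfected. The titles name a single siRNA, and its sequence, its dose and the time after transfection are not stated in the labels. No label says that the 3 libraries of a group are separate cultures, and the p-values reflect the spread among these libraries alone, which may be technical spread.

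Chemokines are small secreted proteins that draw leukocytes along a concentration gradient by binding G protein-coupled receptors. CXCL1, CXCL2, CXCL3 and CXCL8 carry the glutamate-leucine-arginine motif before their CXC cysteines and act on neutrophils through CXCR1 and CXCR2. IL6 and LIF signal through receptor complexes that contain gp130 (IL6ST) and activate JAK kinases and STAT3, a transcription factor that the study's title names beside OTUD1 and PD-L1. Epithelial and renal tumour cells make many of these factors themselves, commonly under the control of NF-kB, AP-1 and C/EBP factors and of rapid mRNA decay through AU-rich elements.

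Library totals were 17243433 to 21013530 counts after OTUD1 siRNA and 16753495 to 18993534 counts after control siRNA. OTUD1 itself was at 1.17 ± 0.288 CPM after OTUD1 siRNA and 3.77 ± 0.0684 CPM after control siRNA (SD, n = 3 each). These levels rest on 17 to 28 counts per OTUD1 siRNA library and 61 to 67 counts per control siRNA library. CPM values here use TMM-scaled library sizes. Leukocyte markers were nearly absent: PTPRC, CD3E, CD3D, MS4A1 and LYZ had 0 counts in every library, and the 15 markers summed to 4.27 to 5.61 CPM after OTUD1 siRNA and 3.82 to 5.72 CPM after control siRNA. The 11 fibroblast and endothelial markers summed to 12.6 to 15.3 CPM after OTUD1 siRNA and 8.26 to 10.45 CPM after control siRNA, most of it PDGFRB and COL1A1, with KDR at 0. The 10 renal and epithelial markers summed to 3648 to 3776 CPM after OTUD1 siRNA and 6830 to 7082 CPM after control siRNA, with KRT8 and KRT18 making up most of the sum and CDH6 at 0. Of the 9 tested, 6 fell, where 31.1% of all genes tested were called lower and 29.3% higher. Among those that fell was the renal factor PAX8 (409 CPM after OTUD1 siRNA and 642 CPM after control siRNA). KRT19 (474 CPM after OTUD1 siRNA and 356 CPM after control siRNA) and EPCAM (47.6 CPM after OTUD1 siRNA and 43.3 CPM after control siRNA) rose, and CDH16 did not pass the test. The part of these markers in the results was not tested.

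Of the 9 genes tested, 8 fell after OTUD1 siRNA and CXCL2 rose. CCL2 fell most, 3.26-fold, and CXCL3, CCL28 and CCL20 fell 1.77 to 1.81-fold. CXCL8, LIF and IL6 fell 1.62-fold, 1.5-fold and 1.4-fold, while CXCL1, at 1.1-fold lower, kept neither its call nor its direction under every scaling. CXCL2 was 1.38-fold higher. Calls were widespread in this experiment: 31.1% of the 15244 genes tested were called lower, 29.3% higher and 60.4% in either direction (edgeR quasi-likelihood test, adjusted p under 0.05 over all genes). The median log2 fold change of the 9 genes was -0.70, against 0.01 over all genes tested. This set and the gene lists further below were chosen with earlier results of these data known. Setting them beside all genes is therefore a description and no test of the set. By size of the log2 fold change CCL2 stood at the 98.6th percentile of all genes, CXCL8 at the 80.5th, and CXCL1 at the 24.7th. Values of the 2 groups did not overlap for any of the 9, which was also true of 64.5% of all genes. A lower level in bulk RNA can mean fewer cells that make the mRNA or less mRNA per cell, which cannot be told apart here.

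**Figure D1:**
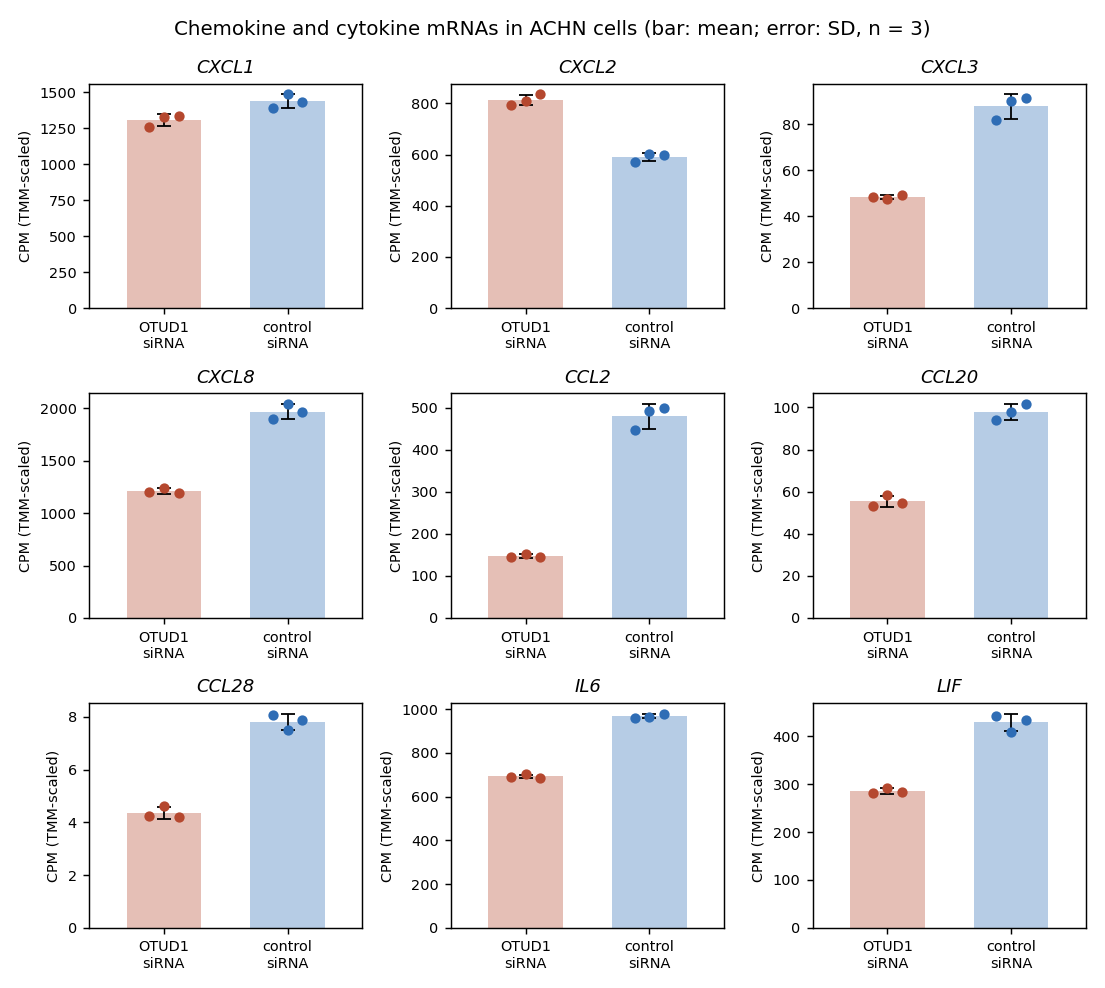
TMM-scaled CPM of the 9 tested genes in each library (points), with the group mean (bar) and SD (error bar, n = 3). OTUD1 siRNA libraries lie below control siRNA libraries in 8 panels and above them for CXCL2.

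The CXC chemokines of this set lie together on chromosome 4, in a cluster of 9 chemokine genes that runs over 359 kb from 73740506 to 74099293 (hg38, GENCODE 29). CXCL8 (73740506 to 73743716, ENSG00000169429.10) and CXCL1 (73869393 to 73871242, ENSG00000163739.4) are on the plus strand. CXCL3 (74036589 to 74038807, ENSG00000163734.4) and CXCL2 (74097035 to 74099293, ENSG00000081041.8) are on the minus strand. The principal transcript of each has 4 exons. Of the other cluster genes, CXCL6, PF4V1, PF4 and PPBP had no count in any library, and CXCL5 had 9 to 14 counts per OTUD1 siRNA library and 14 to 21 per control siRNA library.

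CXCL8 encodes interleukin-8, a strong neutrophil attractant. It was at 1205, 1242 and 1189 CPM in the OTUD1 siRNA libraries and at 1897, 2041 and 1965 CPM in the control siRNA libraries. Every OTUD1 siRNA library was below every control siRNA library, and the log2 fold change was -0.70 (SE 0.028, adjusted p = 9.35e-19 by edgeR). The neutrophil attractant CXCL1 was at 1258, 1326 and 1332 CPM after OTUD1 siRNA and at 1391, 1485 and 1435 CPM after control siRNA. The gap between the groups was small, and the log2 fold change was -0.14 (SE 0.028, adjusted p = 0.000111 by edgeR). With library totals in place of TMM scaling the CXCL1 log2 fold change was -0.01 (adjusted p = 0.775), and after quantile normalization it was 0.12 in the opposite direction (limma adjusted p = 0.000845). No direction for CXCL1 is therefore given beyond its TMM value.

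CXCL2, also called MIP-2-alpha, acts on the same neutrophil receptor as CXCL1. It was at 794, 811 and 835 CPM after OTUD1 siRNA and at 572, 601 and 597 CPM after control siRNA. All 3 OTUD1 siRNA libraries were above all 3 control siRNA libraries, with a log2 fold change of 0.46 (SE 0.029, adjusted p = 4.50e-14 by edgeR). CXCL3, which completes the near-identical trio, was at 48.4, 47.6 and 49.4 CPM after OTUD1 siRNA and at 81.7, 90.0 and 91.6 CPM after control siRNA. It fell with a log2 fold change of -0.86 (SE 0.051, adjusted p = 1.25e-14 by edgeR), again without overlap between the groups.

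Ratios of counts within a library do not depend on how libraries are scaled to each other, and they set these genes against CXCL2 directly. There were 1.58, 1.64 and 1.6 CXCL1 counts per CXCL2 count in the OTUD1 siRNA libraries, against 2.43, 2.47 and 2.4 in the control siRNA libraries. The CXCL8 to CXCL2 ratio was 1.49 ± 0.0585 after OTUD1 siRNA and 3.33 ± 0.0533 after control siRNA (SD, n = 3 each). For CXCL3 to CXCL2 it was 0.0596 ± 0.00114 after OTUD1 siRNA and 0.149 ± 0.00526 after control siRNA. On the log2 scale the ratios differed by -0.60, -1.16 and -1.32, and none of the 3 overlapped between groups. All 3 ratios share CXCL2, the gene that rose, so they are not separate results and follow from the values of the single genes. No share of non-overlapping ratios over other gene pairs is given for comparison. An exact two-sided permutation test over 3 against 3 libraries gave p = 0.1 for each, also after adjustment over the 3 ratios, and 0.1 is the smallest p this design allows.

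Per kilobase of the principal transcript, CXCL1, CXCL8 and CXCL2 were among the more abundant members, while CXCL3 was among the least abundant. After OTUD1 siRNA the order was CXCL1 (1190 ± 37.8 CPM per kb), CXCL8 (711 ± 15.8), CXCL2 (668 ± 16.9), IL6 (454 ± 5.23), CCL2 (199 ± 5.12), LIF (72.1 ± 1.51), CCL20 (69.2 ± 3.21), CXCL3 (45.1 ± 0.828) and CCL28 (1.4 ± 0.0715). After control siRNA it was CXCL1 (1310 ± 43.1 CPM per kb), CXCL8 (1154 ± 42.1), CCL2 (647 ± 39.3), IL6 (633 ± 6.11), CXCL2 (484 ± 13.2), CCL20 (122 ± 4.72), LIF (108 ± 4.41), CXCL3 (81.7 ± 4.92) and CCL28 (2.5 ± 0.0953). After OTUD1 siRNA, LIF lay above CCL20 in each library (70.9, 73.8 and 71.6 against 66.4, 72.7 and 68.5), though the SDs of the means overlapped. After control siRNA, CCL2 lay below IL6 in replicate 1 (601.9 against 629.2) and above it in replicates 2 and 3. Neither difference was tested. CCL2 ranked below CXCL2 and IL6 after OTUD1 siRNA, and beside IL6 and above CXCL2 after control siRNA. Within the sum of the 4 CXC mRNAs per kilobase, CXCL2 made up 25.6% ± 0.402 after OTUD1 siRNA and 16.0% ± 0.188 after control siRNA, and CXCL8 made up 27.2% ± 0.714 after OTUD1 siRNA and 38.1% ± 0.158 after control siRNA (SD, n = 3 each). CXCL1 held 45.5% ± 0.509 after OTUD1 siRNA and 43.2% ± 0.128 after control siRNA.

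**Figure D2:**
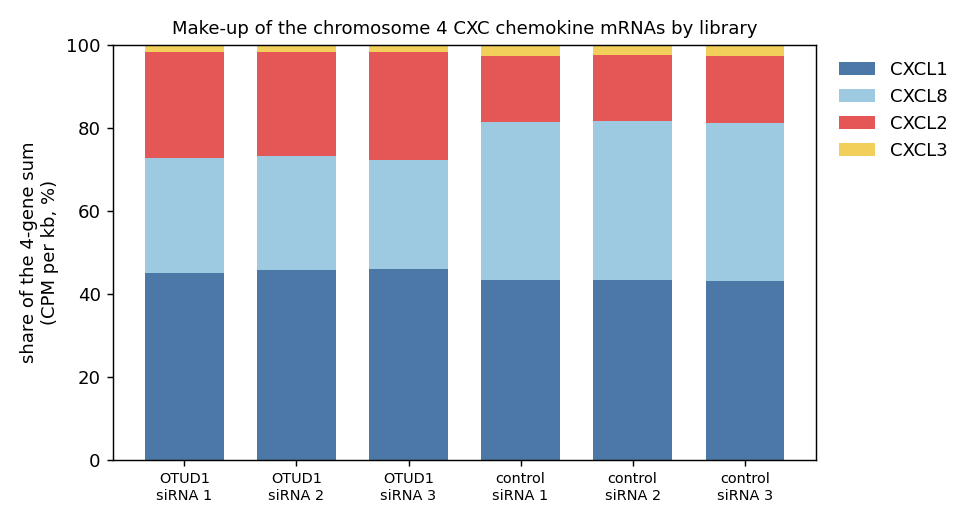
Share of CXCL1, CXCL8, CXCL2 and CXCL3 in their summed CPM per kilobase (percent, stacked) in each of the 6 libraries. The CXCL2 share is 25.1% to 25.9% in the OTUD1 siRNA libraries and 15.8% to 16.1% in the control siRNA libraries.

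CXCL1, CXCL2 and CXCL3 are close copies, so reads could be divided among them by the authors' counting, which is not described in the sources used here. Their coding sequences were 90.7% to 94.4% identical in pairs (GENCODE 29 principal transcripts). Of all 50-base windows of the CXCL2 transcript, 9.24% occurred exactly in CXCL1 or CXCL3, and 5.73% and 5.26% of those of CXCL1 and CXCL3 occurred in the other two. No window of 100 bases was shared. The values of the trio are therefore uncertain, and these shares do not bound the error: CXCL2 was far more abundant than CXCL3, so CXCL2 reads counted as CXCL3 could weigh more on CXCL3 than its own share of windows.

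The sequences just upstream of the trio are much alike, and no relation of sequence to the fold changes was tested. The stretches printed for 6 genes run from base -110 to base -31, counted back from the RefSeq start (GRCh38.p14, base -1 being the last before it). They are written 5′ to 3′ on the gene's strand, with the NF-kB-like word GGNNTTTCC (or its reverse complement GGAAANNCC) in capitals. In GENCODE 29 the annotated gene begins upstream of the whole window for CXCL3, IL6 and CCL20 and within it for CXCL2 and CXCL8, and the CXCL1 window lies before the gene.
CXCL2, chr4:74099226-74099305, minus strand: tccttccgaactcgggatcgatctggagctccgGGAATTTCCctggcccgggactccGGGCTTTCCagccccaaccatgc
CXCL1, chr4:73869283-73869362, plus strand: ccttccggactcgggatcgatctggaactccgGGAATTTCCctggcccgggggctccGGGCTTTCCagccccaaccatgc
CXCL3, chr4:74038720-74038799, minus strand: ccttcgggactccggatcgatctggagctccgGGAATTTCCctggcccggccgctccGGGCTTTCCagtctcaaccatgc
CXCL8, chr4:73740459-73740538, plus strand: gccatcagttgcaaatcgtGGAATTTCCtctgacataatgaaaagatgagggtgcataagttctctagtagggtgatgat
IL6, chr7:22727090-22727169, plus strand: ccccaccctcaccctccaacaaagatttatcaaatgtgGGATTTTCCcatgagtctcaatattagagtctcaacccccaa
CCL20, chr2:227813732-227813811, plus strand: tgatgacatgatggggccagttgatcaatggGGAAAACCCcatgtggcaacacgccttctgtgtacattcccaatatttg

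CXCL1, CXCL2 and CXCL3 each held the word at 2 places, and their last 100 bases before the start were 89.1% to 94.1% identical. CXCL8, whose last 100 bases were 41.5% to 45.3% identical to theirs, held it once at -91, IL6 once at -72 and CCL20 once at -79. Promoter sequences were matched for 8 of the 10 genes, and the word was found in the 250 bases before the start for those 6 and not for CCL28 or IL1A. CCL2 and LIF were not matched. Over all 35116 RefSeq start sites, 5.48% had the word in those 250 bases and 0.231% had it more than once.

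Farther upstream the trio differs. The C/EBP-like word TTGCNNAA (reverse complement TTNNGCAA) was found before CXCL2 at -188 and before IL6 at -155, and not before CXCL1 or CXCL3. It occurred before 9.05% of all start sites. The stretch of CXCL2 and stretches of CXCL1 and CXCL3 follow, with the word in capitals where present. Each was placed by the bases GTTAC, which overlap the word in CXCL2, and not by alignment. They begin at -199 in CXCL2, -215 in CXCL1 and -207 in CXCL3, and were not shown to be matching sites.
CXCL2, chr4:74099355-74099394, minus strand: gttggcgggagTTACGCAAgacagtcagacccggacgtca
CXCL1, chr4:73869178-73869217, plus strand: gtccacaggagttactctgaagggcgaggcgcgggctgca
CXCL3, chr4:74038857-74038896, minus strand: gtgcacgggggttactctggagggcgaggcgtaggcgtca

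CXCL2 rose and IL6, which also had the C/EBP-like word, fell, and no relation of the words to the fold changes was tested. The AP-1 word TGANTCA, which reads the same on both strands, was found before CXCL8 at -137 and before IL1A, and before 6.57% of all start sites. No word overlapped another in the windows of the 6 genes printed. A matching word is a description of the sequence and does not show a bound site.

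**Figure D3:**
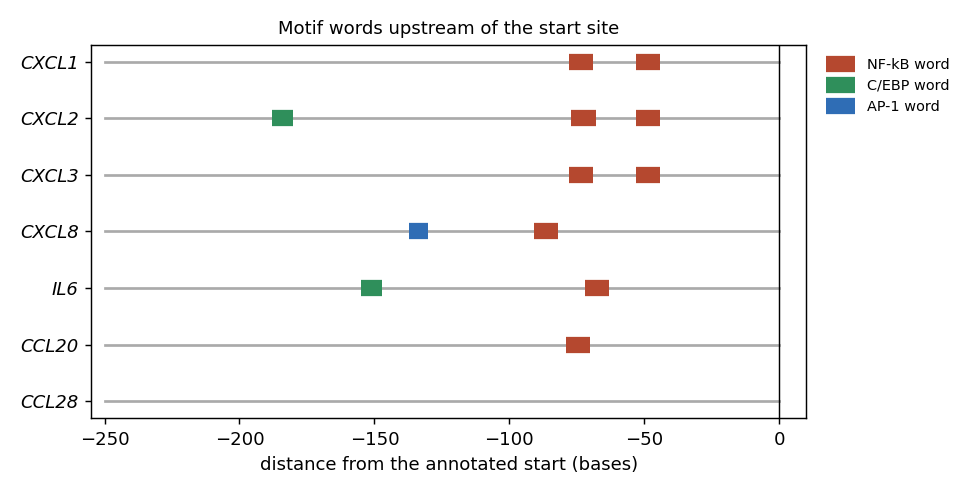
Positions of NF-kB, AP-1 and C/EBP words in the 250 bases before the RefSeq start of 7 genes, as distance from the start in bases. The pair of NF-kB words sits at nearly the same place in CXCL1, CXCL2 and CXCL3, and the C/EBP word appears in CXCL2 and IL6.

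Among the CC chemokines, CCL2, the monocyte attractant MCP-1 that binds CCR2, fell most. The gene lies on chromosome 17 (34255218 to 34257203, plus strand, ENSG00000108691.9, 3 exons). CCL2 was at 146, 152 and 144 CPM in the OTUD1 siRNA libraries and at 446, 492 and 499.9 CPM in the control siRNA libraries. Every value after OTUD1 siRNA was far under the lowest value after control siRNA, and the log2 fold change was -1.70 (SE 0.038, adjusted p = 2.10e-24 by edgeR; 95% interval -1.78 to -1.62). Across the 13 other settings tried, it ran from -1.76 to -1.52. Its neighbour CCL7 had 0 counts over the OTUD1 siRNA libraries and 2 over the control siRNA libraries, and CCL11, CCL8, CCL13 and CCL1, which follow on the chromosome, had none.

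CCL20 attracts CCR6-bearing dendritic cells and T cells (chromosome 2, 227805739 to 227817564, plus strand, ENSG00000115009.12). It was at 53.2, 58.2 and 54.8 CPM after OTUD1 siRNA and at 94.0, 97.7 and 102 CPM after control siRNA. The log2 fold change was -0.82 (SE 0.049, adjusted p = 1.09e-14 by edgeR), with no overlap. CCL28, a mucosal epithelial chemokine that binds CCR10 and CCR3, is on chromosome 5 (43376645 to 43412391, minus strand, ENSG00000151882.11). It was the least abundant of the chemokines tested, with 93, 93 and 76 counts after OTUD1 siRNA and 129, 136 and 135 counts after control siRNA. These correspond to 4.24, 4.62 and 4.22 CPM after OTUD1 siRNA and 8.07, 7.49 and 7.88 CPM after control siRNA. All 3 CCL28 values after OTUD1 siRNA were below all 3 after control siRNA. The log2 fold change was -0.84 (SE 0.14, adjusted p = 4.66e-06 by edgeR), and its wider 95% interval of -1.12 to -0.56 goes with those low counts.

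IL6, the gp130 cytokine of the acute-phase response, lies on chromosome 7 (22725884 to 22732002, plus strand, ENSG00000136244.11). It was at 691, 702 and 686 CPM in the OTUD1 siRNA libraries and at 961, 962 and 978 CPM in the control siRNA libraries. The spread within either group was small beside the gap, and the log2 fold change was -0.48 (SE 0.027, adjusted p = 2.19e-15 by edgeR). After quantile normalization the fall of IL6 was smaller, with a log2 fold change of -0.26 (limma), and it passed the test there as well. The opposite-strand genes STEAP1B and AC073072.1 overlap IL6 in the annotation, and the strand setting of the counting is not given.

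LIF, leukaemia inhibitory factor, signals through LIFR and gp130 (chromosome 22, 30240447 to 30246851, minus strand, ENSG00000128342.4). It was at 282, 293 and 284 CPM after OTUD1 siRNA and at 443, 409.6 and 435 CPM after control siRNA. All OTUD1 siRNA values were lower, with a log2 fold change of -0.58 (SE 0.033, adjusted p = 4.09e-15 by edgeR). The antisense gene LIF-AS1 overlaps LIF and had 17, 9 and 8 counts after OTUD1 siRNA and 6, 3 and 3 after control siRNA, too few for the test. From the summed counts of 34 and 12, LIF-AS1 was 2.42-fold higher after OTUD1 siRNA (95% exact binomial interval 1.22 to 5.13, covering counting error only). Since the strand setting is not given, reads of the pair may be mixed, though LIF had at least 5117 counts in each library.

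IL1A, an alarmin of the interleukin-1 family, was barely present (chromosome 2, 112773915 to 112784590, minus strand, ENSG00000115008.5). It had 0, 0 and 2 counts in the OTUD1 siRNA libraries and 0, 1 and 2 counts in the control siRNA libraries. At this depth, where 3 counts correspond to 0.137 to 0.188 CPM, no difference in IL1A was detectable and no fold is given.

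**Figure D4:**
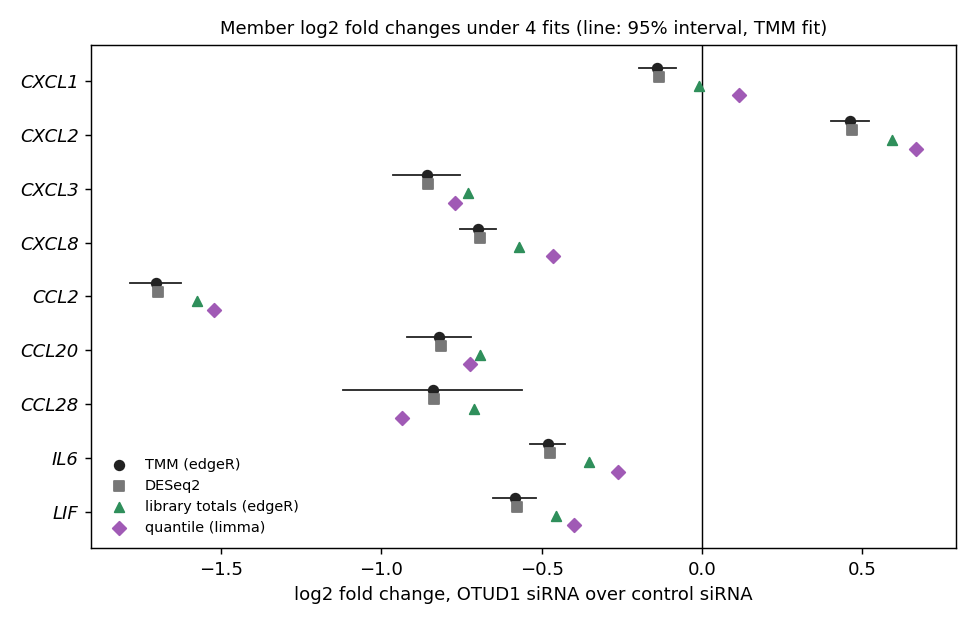
Log2 fold change (OTUD1 siRNA over control siRNA) of the 9 tested genes in 4 fits: TMM scaling with edgeR (line: 95% interval), DESeq2, library totals with edgeR, and quantile normalization with limma. CXCL1 runs from -0.14 to 0.12 across them, CXCL2 stays above 0 and the other 7 stay below it.

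Many of these mRNAs carry AU-rich words in the 3′ untranslated region, the sequence that tristetraprolin-type proteins and HuR bind. The word TATTTAT was found in the annotated 3′ untranslated region of 9 of the 10 genes, and in 33.3% of the 12438 tested genes with such a region of at least 50 bases. CXCL2 had 8 copies in 721 bases, LIF 5 in 3204, CXCL1 4 in 706 and CXCL8 4 in 1252, while 3.05% of the tested genes had 4 or more. CXCL3 (673 bases), IL6 (429) and IL1A (1152) had 3 each, CCL28 2 and CCL20 1. CCL2, which changed most, had 0 copies in 376 bases, and CXCL2, the gene that rose, had the most copies. These counts were not corrected for length, and no relation to the fold changes was tested.

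Most other chemokine ligands were not detected. Of 39 further chemokine ligands, 25 had no count in any library and 4 could be tested, of which 2 fell and 0 rose (median log2 fold change -0.10). Over all genes tested, 31.1% were called lower and 29.3% higher. With edgeR the unadjusted p of both, CX3CL1 and CXCL5, was under 0.05, and DESeq2 called 1 of the 4 lower and 0 higher. CX3CL1 was at 30.5 ± 3.33 CPM after OTUD1 siRNA and 34.8 ± 0.233 CPM after control siRNA (adjusted p = 0.0177). CXCL5 was at 0.545 ± 0.0808 CPM after OTUD1 siRNA and 1.05 ± 0.206 CPM after control siRNA (edgeR adjusted p = 0.0333). Both calls were lost when single libraries were left out: CX3CL1 without OTUD1 siRNA replicate 1 (log2 fold change -0.18) or 2 (-0.13), and CXCL5 without OTUD1 siRNA replicate 2 (-0.87) or 3 (-0.88) or control siRNA replicate 1 (-0.85) or 2 (-0.86).

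Of 16 other inflammatory cytokines and growth factors tested from a list of 32, 10 fell and 2 rose, with a median log2 fold change of -0.46. The shares over all genes tested were 31.1% lower and 29.3% higher. CSF1, the macrophage growth factor, was at 70.4 ± 2.71 CPM after OTUD1 siRNA and 161 ± 0.795 CPM after control siRNA, 2.29-fold lower (edgeR adjusted p = 3.76e-20). CSF2, which encodes GM-CSF, fell 1.83-fold and IL32 fell 1.47-fold. TNF, chosen after its values were seen, was at 3.07 ± 0.422 CPM after OTUD1 siRNA and 14.5 ± 1.71 CPM after control siRNA, 4.73-fold lower (edgeR adjusted p = 1.71e-14). Against that direction, the gp130 cytokine CTF1 (cardiotrophin-1) rose 2.66-fold and IL18 rose 1.36-fold.

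Receptors were called in both directions, as were genes at large (31.1% of all genes tested lower and 29.3% higher). Of 23 chemokine receptors, 14 had no count and 3 were tested (median log2 fold change -1.25). CXCR4, the CXCL12 receptor, was at 3.11 ± 0.53 CPM after OTUD1 siRNA and 14.4 ± 1.22 CPM after control siRNA, 4.61-fold lower (edgeR adjusted p = 1.95e-14). The atypical scavenging receptor ACKR4 fell 2.39-fold, and CCR10, a receptor for CCL28, rose 1.35-fold. Of 22 receptors and signal transducers of the IL-6 and IL-1 families tested, 10 fell and 5 rose (median -0.06). With library totals 5 of the 22 were called lower. The shared subunit IL6ST fell 1.59-fold, while the IL6-binding receptor IL6R was at 31.1 ± 0.276 CPM after OTUD1 siRNA and 10.2 ± 1.27 CPM after control siRNA, 3.04-fold higher (edgeR adjusted p = 1.53e-15). IL11RA rose 1.61-fold. Outside these lists, STAT3, the transcription factor downstream of gp130, was at 242 ± 1.82 CPM after OTUD1 siRNA and 181 ± 3.53 CPM after control siRNA, 1.34-fold higher (edgeR adjusted p = 7.83e-12). LIFR, also chosen after its values were seen, fell 1.69-fold (edgeR adjusted p = 0.00205). The interleukin-1 coreceptor IL1RAP fell 1.93-fold, and of the TAK1-binding adaptors TAB2 fell 1.4-fold and TAB1 rose 1.33-fold.

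Among 17 NF-kB subunits, kinases and inhibitors, 9 fell and 2 rose (median log2 fold change -0.23). Over all genes tested, 31.1% were called lower and 29.3% higher. With library totals 5 of the 17 were called higher. The inhibitor NFKBIA was at 228 ± 5.81 CPM after OTUD1 siRNA and 518 ± 4.45 CPM after control siRNA, 2.28-fold lower (edgeR adjusted p = 7.82e-23). The subunits RELA and NFKB2 fell 1.65-fold and 1.43-fold, while the inhibitor NFKBIB rose 1.36-fold and TNIP1 1.08-fold. Of 12 AP-1 and C/EBP factors, 4 fell and 4 rose (median -0.17), near the shares over all genes. The AP-1 members FOSL1, FOSL2 and JUN fell 1.96-fold, 1.34-fold and 1.23-fold. JUND rose 1.92-fold, and the C/EBP factors CEBPD and CEBPB rose 1.82-fold and 1.3-fold.

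Of 15 regulators of cytokine mRNA decay, 11 fell and 1 rose (median log2 fold change -0.26). KHSRP, which promotes decay of AU-rich mRNAs, was at 178 ± 6.15 CPM after OTUD1 siRNA and 284 ± 16.3 CPM after control siRNA, 1.6-fold lower (edgeR adjusted p = 6.37e-15). The decay factor ZFP36L2 fell 1.61-fold and ELAVL1 (HuR), which stabilises such mRNAs, fell 1.3-fold. ZFP36L1, a relative of ZFP36L2, rose 1.12-fold. Called shares of these lists are to be read against the 31.1% of all genes called lower and 29.3% called higher.

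**Figure D5:**
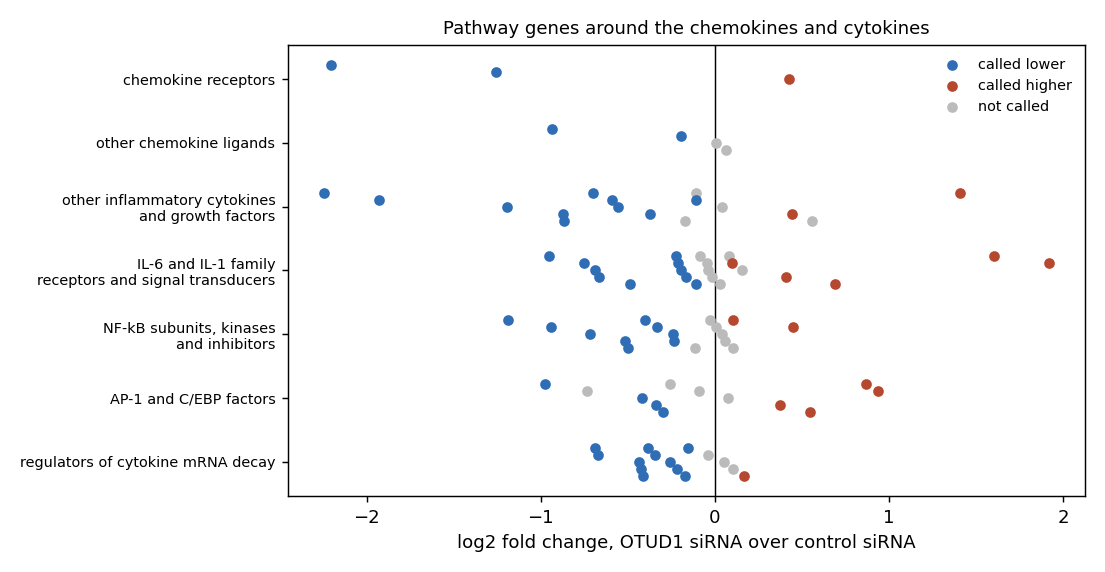
Log2 fold change (OTUD1 siRNA over control siRNA) of each tested gene in 7 lists around the chemokines and cytokines, coloured by call at adjusted p under 0.05 (points are staggered vertically for visibility). CXCR4 at -2.21 and TNF at -2.24 are the lowest points, and IL6R at 1.61 and CTF1 at 1.41 are among the highest.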

How the data were processed

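RNA of 6 ACHN libraries was sequenced from a directional kit, per the labels' protocols. The deposited values are whole-number counts per gene row, named by symbol (1745 rows share a symbol with another row), although the table's name speaks of FPKM. The build is hg38, per the submitters' processing notes; the labels do not name the aligner, the counter or the strand setting. No row lacked a gene name.

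The deposited counts were tested in edgeR 4.0.16 (R 4.3.3). filterByExpr (10 counts in 3 libraries at the median size, 15 in all) kept 15244 genes. They were scaled by TMM (factors 1.045 to 1.046 for OTUD1 siRNA, 0.9549 to 0.9572 for control siRNA), compared with glmQLFit and glmQLFTest, two-sided, and adjusted by Benjamini-Hochberg over all genes. SEs were derived from F. The spread that edgeR estimated between libraries of a group beyond counting error was 3.78% (coefficient of variation). No pair of same-group libraries agreed within sampling noise (chi-square averaged over genes 2.05 to 3.72, against 46.8 to 56.5 across groups). The fit was also run on simulated counts in which 200 genes changed. That is far fewer than were called here, so the simulation does not check the scaling or the calls under such widespread change.

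Levels per kilobase use the GENCODE 29 principal transcript (the longest where tied). Sequences are RefSeq's. Identities are from global alignment (Biopython 1.88, Python 3.11.15).

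The 10 genes and all lists were chosen with earlier results of these data known. Named were all 10 genes, OTUD1, STAT3 and, from each list, up to 3 called genes per direction with the smallest adjusted p (all where 6 or fewer were called). TNF and LIFR were added after their values were seen. Alternatives covered the filter, scaling, tool (DESeq2 1.42.0, limma 3.58.1), replicate block and each library left out.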

Additional observations from a re-analysis of the deposited data

How the results depend on the processing

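Of the 44 genes named, 41 kept direction and call under all 13 settings in which they could be fitted, among them every tested chemokine and cytokine of the set except CXCL1. The cell type markers, such as PAX8, KRT19 and EPCAM, were not among the 44, and their calls were not checked this way. CXCL1 had a log2 fold change of -0.01 with library totals and 0.116 after quantile normalization. Library totals moved the median of all genes by 0.13 on the log2 scale and made 64.2% of calls higher, against 48.4% with TMM. The change to library totals moves all genes nearly alike, so the standing of CXCL1 among them could not settle its direction. Quantile normalization did not move genes alike, with a median shift of 0.02 from the TMM fit. Under it the log2 fold change of CXCL8 went from -0.70 to -0.46 and that of CCL28 from -0.84 to -0.94. The count of set members called higher was 2 after quantile normalization. Members called lower numbered 7 or 8 in all settings.

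Of the further chemokine ligands, 1 was called lower without a filter, 0 with a minimum mean of 5 CPM, 0 with library totals, 1 after quantile normalization and 1 with DESeq2, and 0 to 2 with single libraries left out; library totals called 1 higher. With library totals 5 transducers of the IL-6 and IL-1 families were lower and 5 NF-kB genes higher. The decay regulators called higher were 3 with a minimum mean of 5 CPM, 3 with library totals, 3 after quantile normalization and 1 to 2 with single libraries left out. Chemokine receptors called lower were 1 with a minimum mean of 5 CPM (2 tested), and those called higher 2 without a filter (9 tested). The cause of these changes was not tested, beyond the change in genes tested under the filters.

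The replicate numbers were not shown to pair the libraries (same-number correlations of deviations 0.0283, 0.132 and -0.00249), and not every library correlated best with its own number (OTUD1 siRNA replicate 3 did not). With the replicate block 4791 genes were lower and 4484 higher, against 4746 and 4460 without it, and no call of a set member changed. Low counts limit CCL28, CXCL5 and IL1A.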

Other observations

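Some chemokine genes too low to test had counts in one group alone. The interferon-induced T-cell attractants CXCL10 and CXCL11 had 0 and 0 counts over the OTUD1 siRNA libraries and 5 and 7 over the control siRNA libraries. CXCL14 had 6 counts over the OTUD1 siRNA libraries and 0 over the control siRNA libraries. These were chosen after their values were seen, and no fold or test is given.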
